A study of Homo sapiens with 8 samples.

Results

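The data described here are those of 10 chemokine genes (CCL2, CCL7, CCL20, CXCL1, CXCL2, CXCL3, CXCL6, CXCL8, CXCL12 and CX3CL1) in U87 glioblastoma cells with and without knockdown of RND3. The genes were taken as a list of symbols, and their probes were found by matching the transcript accession of each probe to a gene symbol (CXCL8 is the current symbol of IL8). They made up 10 of the 19483 genes named on the arrays and had 15 of the 42405 probes. U87 is an established human glioma cell line, and RND3 (RhoE) encodes an atypical small GTPase. Cells were reverse transfected with Lipofectamine RNAiMAX, either with siRNA against RND3 (RhoE KD in the labels, siRND3 here) or with a non-silencing control oligo (control or NSC in the labels, siControl here). Total RNA was hybridised to Agilent human arrays with 1 colour (Cy3), with 3 siControl and 3 siRND3 arrays at 24 h and 1 of each at 48 h. The methods name a pair of siRNA oligos against RND3, and the sources used here do not say which array received which. Nor do they say whether replicates were separate transfections, so p-values measure only the spread between these arrays, which may be technical.

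Chemokines are small secreted proteins that attract cells by binding G protein-coupled receptors. CCL2 and CCL7 act on CCR2 and draw monocytes, and CCL20 acts on CCR6. CXCL1, CXCL2, CXCL3, CXCL6 and CXCL8 share a glutamate-leucine-arginine motif, bind CXCR2 and draw neutrophils. CXCL12 acts on CXCR4 and ACKR3, and CX3CL1 is made as a membrane-bound protein that binds CX3CR1. Glioma cells are known to secrete CCL2 and CXCL8, and many of these genes are induced through NF-kB by interleukin 1 and tumour necrosis factor.

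Promoter sequences of 8 of the 10 genes were given (RefSeq, GRCh38.p14), all except those of CCL2 and CX3CL1. They are shown because CXCL1, CXCL2, CXCL3 and CXCL8, which were lower at 24 h, share a short element just before their start, as does CXCL6, which was not detected. The kB element searched was GGNNTTTCC on either strand, in the 250 bases before the start. It was found in 6 of the 8 promoters, while 5.48% of the 27305 promoters given (1497 promoters) held it. Of 25 further chemokine genes with a promoter, 3 held it (CXCL5, CXCL10 and CXCL11), and CCL3 and CCL3L3, the further chemokines that fell, did not. The genes were listed with earlier results of these data known, and the element is shown because genes that fell share it. The share of 6 in 8 is therefore not independent of the data. Other forms of the kB element were not searched, so a promoter without a match may hold another form. The 6 promoters with a match are also not independent of each other, since CXCL1, CXCL2 and CXCL3 are closely related genes. Among the 6, CXCL6 and CCL20 were not tested at 24 h. Each line below gives the 150 bases before the start, 5′ to 3′ on the strand of the gene, with matches to the kB element in capitals.
CXCL8: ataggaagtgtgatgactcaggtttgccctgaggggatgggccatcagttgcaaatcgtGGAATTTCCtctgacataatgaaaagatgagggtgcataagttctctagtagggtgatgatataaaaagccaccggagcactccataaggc
CXCL1: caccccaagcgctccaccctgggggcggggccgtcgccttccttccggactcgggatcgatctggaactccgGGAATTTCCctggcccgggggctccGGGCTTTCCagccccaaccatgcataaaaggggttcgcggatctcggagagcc
CXCL2: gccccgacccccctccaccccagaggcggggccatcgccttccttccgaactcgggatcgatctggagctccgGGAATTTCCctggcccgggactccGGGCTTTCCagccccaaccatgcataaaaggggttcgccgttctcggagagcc
CXCL3: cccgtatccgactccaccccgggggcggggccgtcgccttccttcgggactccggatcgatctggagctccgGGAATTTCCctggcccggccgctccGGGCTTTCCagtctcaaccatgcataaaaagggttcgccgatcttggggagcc
CXCL6: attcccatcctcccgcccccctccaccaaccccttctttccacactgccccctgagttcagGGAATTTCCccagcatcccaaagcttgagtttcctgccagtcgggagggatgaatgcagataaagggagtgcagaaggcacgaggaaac
CXCL12: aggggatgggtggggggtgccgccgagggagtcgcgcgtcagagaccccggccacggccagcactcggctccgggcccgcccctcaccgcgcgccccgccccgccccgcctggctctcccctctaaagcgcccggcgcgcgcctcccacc

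These lines lie at chr4:73740419-73740568, plus strand (CXCL8); chr4:73869243-73869392, plus strand (CXCL1); chr4:74099196-74099345, minus strand (CXCL2); chr4:74038690-74038839, minus strand (CXCL3); chr4:73836528-73836677, plus strand (CXCL6) and chr10:44385098-44385247, minus strand (CXCL12). CXCL1, CXCL2 and CXCL3 each held the same pair of matches, GGAATTTCC and GGGCTTTCC, the latter at 53 to 45 bases before the start in all 3. CXCL8 and CXCL6 held GGAATTTCC, at 91 to 83 and at 89 to 81 bases before the start. In CCL20 the match lay on the other strand (GGAAAACCC, 79 to 71 bases before the start). No match was in the window of CCL7 or CXCL12. An AP-1 element, TGANTCA on either strand, was in the windows of CXCL8 and CCL7 and in 6.6% of all promoters, and did not overlap a kB match. These matches describe letters in a window and were not measured as sites of binding.

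The arrays shared 1 slide and 1 scan. The siRND3 arrays filled its row 1 and the siControl arrays its row 2, and an effect of the row cannot be told apart from the knockdown. Between 68.3% and 70.7% of probes were well above background per array, and no spot was saturated. Values below are log2 of the processed signal after quantile normalisation over the 8 arrays, on which 1 unit is a doubling, and a probe is called dim where the scanner software did not mark it as well above background. Of the glioma and astroglial markers, VIM, CD44 and CHI3L1 were well above background on all 8 arrays, whereas GFAP and SOX2 were dim on all 8.

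RND3 itself read 11.88, 11.91 and 11.90 on the siControl arrays at 24 h and 10.12, 10.18 and 10.42 on the siRND3 arrays. The knockdown therefore left 31.7% of the control signal at 24 h (log2 difference -1.66, SE 0.10, limma adjusted p 0.000345). At 48 h RND3 read 11.48 without and 9.84 with the knockdown, which is 31.9% of the control signal.

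The first comparison asks which chemokines differed after 24 h of knockdown. Of the 10 genes, 7 had a probe well above background on all 3 arrays of a group at 24 h and were tested, with 11 probes in all. CCL2, CXCL1, CXCL2, CXCL3, CXCL8 and CXCL12 fell and no gene rose, so that 6 of 7 tested genes were lower, against 9.29% of all 14805 named genes tested. The genes were listed with earlier results of these data known, so their share is not independent of the data. CXCL12 counts as lower by A_23_P202448 alone among its 3 tested probes. By probe, 8 of 11 were lower. Among all 28759 probes tested, 11.6% passed an adjusted p of 0.05 in limma in either direction and 6.38% did so as lower. The median difference over the 7 genes was -0.80, against 0.04 over all named genes, each gene taken by its probe of lowest p. In 8 of the 11 probes, the same 8, every siRND3 array at 24 h lay below every siControl array, which held for 14.0% of all probes.

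CCL2, the monocyte attractant, read 11.10, 11.09 and 11.20 on the siControl arrays at 24 h and 10.53, 10.61 and 10.36 on the siRND3 arrays. The groups did not overlap, and siRND3 cells held 64.7% of the control signal (log2 difference -0.63, SE 0.09, limma adjusted p 0.00823). The CCL2 probe was printed as 10 spots, and the SD between spots of 1 array was 0.03 to 0.07, below the difference on every array. The call held under all 16 alternatives, in which the difference lay between -0.99 and -0.56.

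CXCL8 (interleukin 8) read 7.44, 7.55 and 7.52 in siControl cells at 24 h and 6.47, 5.61 and 6.50 in siRND3 cells. All 3 siRND3 arrays were lower, with replicate 2 lowest, and the mean fell to 40.3% of control (log2 difference -1.31, SE 0.24, limma adjusted p 0.0187). The call was lost when any 1 siControl array was left out (adjusted p 0.0591, 0.0628 and 0.0644 without replicates 1, 2 and 3) and when dim probes were not filtered out (0.0566). Under normexp background correction the difference was -0.81 (adjusted p 0.00145).

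CXCL1, CXCL2 and CXCL3, closely related genes of the chemokine cluster on chromosome 4, all fell. The CXCL2 probe A_23_P315364 read 10.58, 10.65 and 10.64 in siControl cells and 9.76, 9.70 and 9.95 in siRND3 cells, which is 56.7% of control (log2 difference -0.82, SE 0.09, limma adjusted p 0.00292). Its other probe, A_24_P257416, gave a difference of -0.64 (SE 0.09, adjusted p 0.00835). The calls of both CXCL2 probes held in all 17 alternatives. The CXCL1 probe A_23_P7144 read 6.21, 6.16 and 6.47 against 5.40, 5.66 and 5.40 (log2 difference -0.80, SE 0.12, adjusted p 0.00991). A smaller difference was measured by the other CXCL1 probe, A_33_P3330264, with 6.93, 6.92 and 7 against 6.55, 6.42 and 6.61 (log2 difference -0.42, SE 0.08, adjusted p 0.0216). CXCL3 read 6.53, 6.60 and 6.63 against 5.91, 5.52 and 6.11, and the groups did not overlap (log2 difference -0.74, SE 0.15, adjusted p 0.0281). CXCL5, which binds the same receptor and also held a match to the kB element, did not pass (log2 difference 0.15, adjusted p 0.225). Without any 1 siControl array the CXCL3 probe and A_33_P3330264 no longer passed (adjusted p 0.0760, 0.0846 and 0.0953 for CXCL3 and 0.0731, 0.0682 and 0.0959 for CXCL1, without replicates 1, 2 and 3), nor did CXCL3 without siRND3 replicate 1 (0.0589) or without the filter (0.0702). Normexp correction gave -0.41 and -0.25 for the CXCL1 probes and -0.39 for CXCL3, all past the threshold.

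**Figure D1:**
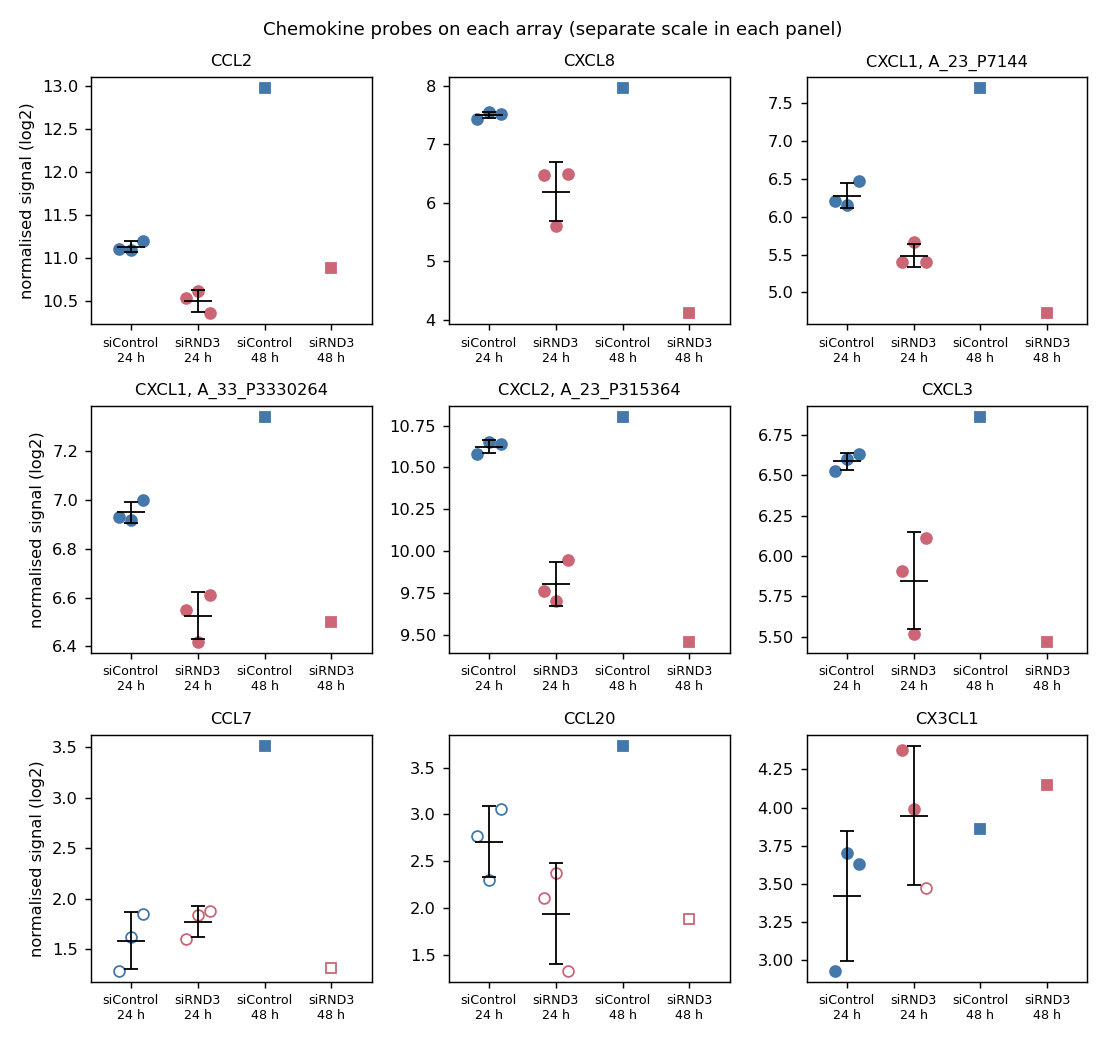
Normalised log2 signal (vertical axes, a separate scale in each panel) of 9 probes on the 8 arrays, grouped by treatment and time. Circles are 24 h arrays with their mean and SD (n = 3), squares are the single 48 h arrays, and open symbols are dim. CCL2, CXCL8, CXCL1, CXCL2 and CXCL3 lie lower in siRND3 cells at both times, and the 48 h siControl array is the only array on which CCL7 (3.51) and CCL20 (3.73) were well above background.

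CXCL12, the ligand of CXCR4, had 4 probes, which did not behave alike. The probe annotated to the alpha transcript (A_23_P202448, NM_199168) read 6.48, 6.55 and 6.68 in siControl cells at 24 h and 5.10, 5.27 and 4.90 in siRND3 cells. It fell to 35.9% of control (log2 difference -1.48, SE 0.12, limma adjusted p 0.000856), the largest difference among the member probes tested at 24 h, and this call held in all 17 alternatives. It was printed as 10 spots, with an SD between spots of 0.08 to 0.15 on the siControl arrays and 0.24 to 0.54 on the siRND3 arrays. Of the 2 probes annotated to the gamma transcript (NM_001033886), A_33_P3712341 read 6.70, 6.75 and 6.82 against 6.91, 6.80 and 6.80 (log2 difference 0.08, SE 0.08, adjusted p 0.537). The other, A_33_P3372840, overlapped between the groups (log2 difference -0.31, SE 0.23, adjusted p 0.424). The probe of the beta transcript (A_24_P412156, NM_000609) was dim on all 6 arrays at 24 h.

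Within each array, the alpha probe minus A_33_P3712341 was -0.18 ± 0.04 (SD, n = 3) in siControl cells and -1.75 ± 0.19 in siRND3 cells at 24 h, a change of -1.56 (exact permutation test, two-sided p 0.1, the smallest that 3 against 3 arrays allow). At 48 h this difference between probes was -0.04 in siControl and -1.86 in siRND3 cells. The CXCL12 probes thus changed unequally at both times. Probe sequences were not used here, so which transcripts each probe detects was not tested. Under normexp correction and with the authors' values the 24 h difference of the alpha probe was -0.65 and -0.90, and the mean over the 3 tested CXCL12 probes was -0.57 (adjusted p 0.0159).

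**Figure D2:**
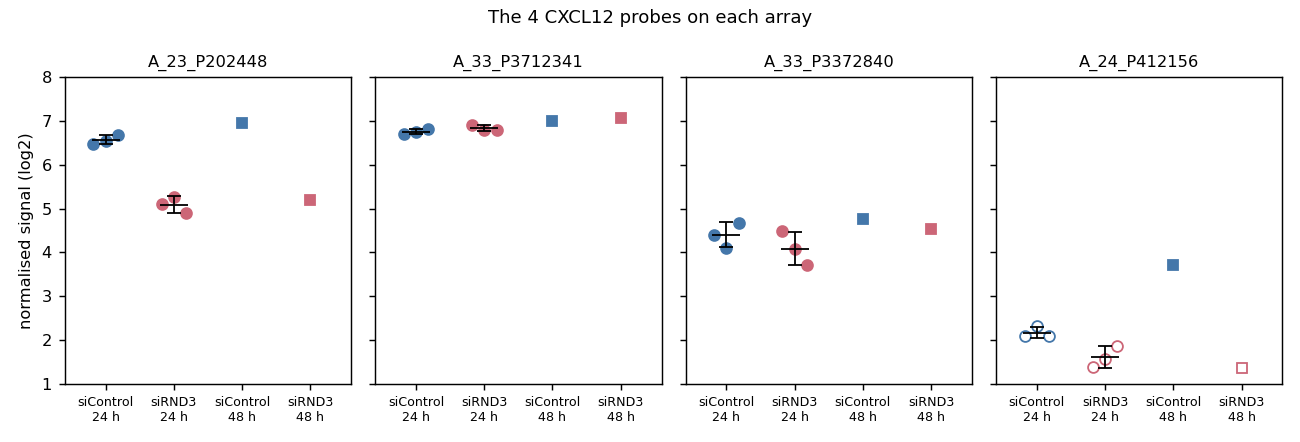
Normalised log2 signal (vertical axis, shared scale) of the 4 CXCL12 probes on the 8 arrays. Circles are 24 h arrays with mean and SD (n = 3), squares are single 48 h arrays, and open symbols are dim. A_23_P202448 lies between 4.90 and 5.27 on the 4 siRND3 arrays and between 6.48 and 6.96 on the siControl arrays, while A_33_P3712341 stays between 6.70 and 7.06 on all 8.

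CX3CL1, whose membrane-bound form holds leukocytes to the cell surface, was the tested gene that did not pass. It read 2.93, 3.70 and 3.63 in siControl cells and 4.38, 3.99 and 3.47 in siRND3 cells at 24 h, with the last of these dim. The groups overlapped (log2 difference 0.52, SE 0.29, limma adjusted p 0.291), and at 48 h the arrays read 3.86 and 4.15. CCL7, CCL20 and CXCL6 were dim on all 6 arrays at 24 h and were not tested there. CXCL6 was dim on all 8 arrays (1.40 to 1.71), although its promoter held the kB match shown above.

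At 48 h, with 1 array per group, the same 8 probes were lower in siRND3 cells in a limma model of the 4 groups, in which the single arrays are assumed to vary like those at 24 h. The percentage called among all probes was 19.0% in either direction and 9.19% as lower. CXCL8 read 7.96 in siControl and 4.12 in siRND3 cells, which leaves 6.97% of the control signal (log2 difference -3.84, SE 0.41, adjusted p 0.00176). CXCL1 by A_23_P7144 read 7.70 and 4.73 (log2 difference -2.96, SE 0.21, adjusted p 0.000519), and by A_33_P3330264 7.34 and 6.50 (log2 difference -0.83, SE 0.14, adjusted p 0.00864). CCL2 read 12.97 and 10.88, so that siRND3 cells held 23.6% of the control signal (log2 difference -2.08, SE 0.16, adjusted p 0.000609). Differences of CXCL2 (-1.33 and -1.11), CXCL3 (-1.40) and the alpha probe of CXCL12 (-1.76) lay between those of the CXCL1 probes, with adjusted p between 0.00219 and 0.0137. The 3 remaining probes, of CXCL12 and CX3CL1, lay between -0.23 and 0.29 and did not pass. All 8 calls held in every alternative run at 48 h, although normexp correction gave -2 for CXCL8, -1.58 and -0.52 for CXCL1, -0.65 for CXCL3 and -0.85 for the alpha probe of CXCL12. With the authors' values the last 2 were -0.88 and -1.14.

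Of the probes that were dim at 24 h, those of CCL7, CCL20 and the beta transcript of CXCL12 were well above background on a single array. CCL7 read 3.51 on the siControl array at 48 h and was dim on the other 7 (1.29 to 1.88). CCL20 read 3.73 there and was dim on the other 7 (1.33 to 3.06), and the beta probe of CXCL12 read 3.71 against 1.37 to 2.32. For such probes the bright value was set against a stand-in level for the dim array. This level was its lowest signal well above background, or the probe's reading there if that is higher. By this level siRND3 cells at 48 h were lower by 1.96-fold in CCL7, 2.29-fold in CCL20 and 2.25-fold in the CXCL12 beta probe. The level is not a ceiling for dim readings, since CCL20 was dim at up to 3.06, so these folds are not minimums. They rest on 1 array of each kind and have no test. In the authors' values, which follow the spot median signal without background subtraction, the same differences were -0.38, -0.27 and -0.46 on the log2 scale, and under normexp correction -0.21, -0.17 and -0.27.

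**Figure D3:**
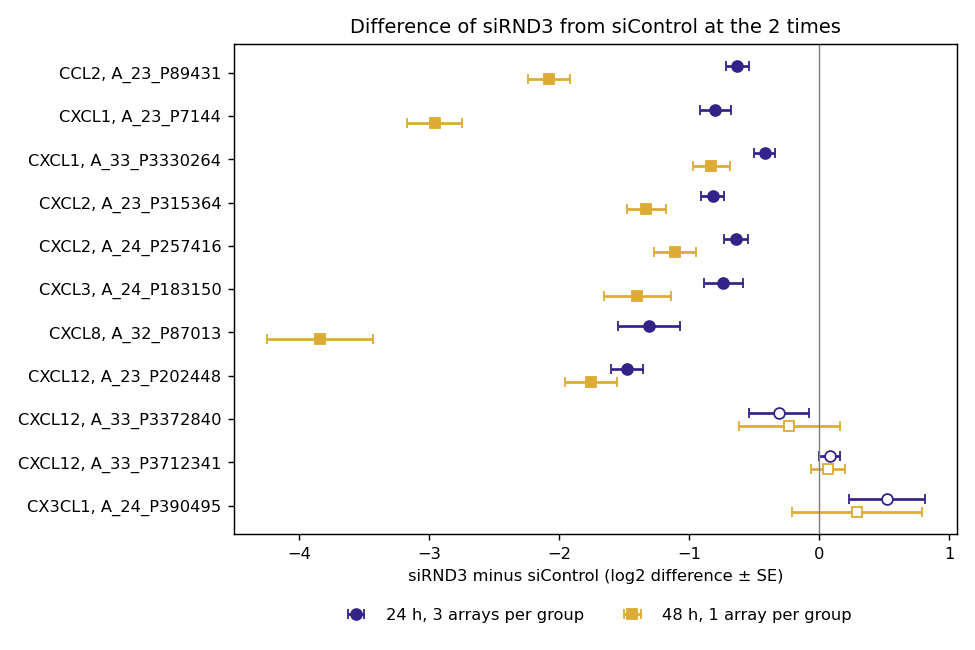
Difference of siRND3 from siControl (horizontal axis, log2, with the SE of the limma fit) for the 11 tested chemokine probes at 24 h (circles, 3 arrays per group) and 48 h (squares, 1 array per group). Filled symbols passed an adjusted p of 0.05. The 8 filled probes lie below 0 at both times, and the gap between the times is widest for CXCL8 (-1.31 and -3.84).

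Whether the knockdown difference itself changed between 24 h and 48 h was tested as an interaction in the same model. It was more negative at 48 h for CXCL8 (by -2.53, SE 0.48, adjusted p 0.0499), CXCL1 by A_23_P7144 (by -2.17, SE 0.24, adjusted p 0.0203) and CCL2 (by -1.46, SE 0.18, adjusted p 0.0245), 3 of the 11 probes. Of all probes, 2.73% passed this test and 1.63% did so with a more negative difference at 48 h. For CXCL2, CXCL3, A_33_P3330264 and the 3 CXCL12 probes the change lay between -0.65 and 0.08 and did not pass, and for CX3CL1 it was -0.23. None of these 3 calls held without siControl replicate 1, 2 or 3, where the lowest adjusted p among them was 0.0556. CCL2 also missed it without siRND3 replicate 1 (0.0504), and CXCL8 without siRND3 replicates 1 and 3 (0.0767 and 0.0794) and without the filter (0.0906). Normexp correction gave -1.19 for CXCL8 and -1.17 for CXCL1.

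The arms behind these differences did not move alike. In siControl cells CCL2 rose from a mean of 11.13 at 24 h to 12.97 at 48 h, a 3.58-fold rise (adjusted p 0.0101), and CXCL1 by A_23_P7144 rose by 1.41 (SE 0.17, adjusted p 0.0159). In siRND3 cells CCL2 stood at 10.50 and 10.88, a change of 0.38 that did not pass (adjusted p 0.118). CXCL8 passed in the other arm, although in siControl cells at 48 h it also lay above all 3 values at 24 h (7.44 to 7.55). CXCL8 varied more on the siRND3 arrays at 24 h (SD 0.51) than on the siControl arrays (SD 0.06), and the model pools these spreads. It stood at 7.5 and 7.96 in siControl cells (adjusted p 0.472) and fell from 6.19 to 4.12 in siRND3 cells (log2 difference -2.07, SE 0.34, adjusted p 0.0162). CXCL1 by A_23_P7144 moved in both arms, since it also fell by 0.75 in siRND3 cells (adjusted p 0.0433). The siControl comparison called 2 of the 11 probes, both higher at 48 h, against 3.56% of all probes in either direction and 0.824% as higher. The siRND3 comparison called 2 of the 11, both lower at 48 h, against 9.03% of all probes in either direction. The fall of CXCL1 was lost in 12 of 14 alternatives (adjusted p 0.0347 to 0.187), and its value was -0.29 under normexp correction and -0.37 with the authors' values. CXCL1 no longer passed in siControl cells without siControl replicate 1 or 2, and the fall of CXCL8 was -0.81 under normexp correction.

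By level, the 4 conditions had the same order for CXCL8, CXCL2, CXCL3 and CXCL1 by A_23_P7144, which was siControl at 48 h, siControl at 24 h, siRND3 at 24 h and siRND3 at 48 h. For A_33_P3330264 the siRND3 groups were level at 6.53 and 6.5, and for CCL2 their order was reversed. CCL2 was highest at 12.97 in siControl cells at 48 h and lowest at 10.50 ± 0.13 (SD, n = 3) in siRND3 cells at 24 h. In CXCL2 and CXCL3 the neighbouring groups of the same treatment did not differ by the time tests (adjusted p 0.146 to 0.498).

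The genes whose pattern over the 8 arrays was most like that of CCL2 were sought among 18120 probes of other genes by the root mean square difference of the values after each probe's mean was subtracted. They were TNFRSF9 (0.17), BDKRB1 (0.19) and ZNF295-AS1 (0.19), against a spread of CCL2 itself of 0.76. TNFRSF9, for example, stood between 6.34 and 6.52 in siControl cells at 24 h, at 7.86 at 48 h and between 5.63 and 5.90 on the siRND3 arrays. For CXCL8 (spread 1.20) the closest were F2RL1 (0.29), CCL3 (0.30) and SLC16A6 (0.30). CCL3 is itself a chemokine, and it stood between 11.35 and 11.43 in siControl cells at 24 h and at 7.73 in siRND3 cells at 48 h.

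Among 36 further chemokine genes, 34 were on the arrays and 16 were tested, of which 1 rose and 2 fell at 24 h. Over all named genes tested, 16.5% were called at 24 h and 9.29% as lower, and at 48 h 27.8% were called and 13.4% as lower, so that the counts of this list lay near those shares at 24 h. Those that fell were CCL3 (log2 difference -1.46, SE 0.10, limma adjusted p 0.000501) and CCL3L3 (-1.38, SE 0.10, adjusted p 0.000626), ligands of CCR1 whose near-identical sequences leave uncertain which of them a probe reads. CXCL14 was higher by 0.36 (SE 0.09, adjusted p 0.0437). The median over these 16 genes was 0.12. At 48 h the counts were again 1 and 2, with CCL3 at -4.27 and CCL3L3 at -3.82. CXCL14 did not pass at 24 h in 10 of 16 alternatives.

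Of 22 chemokine receptors, 9 were tested, of which 2 rose and 1 fell at 24 h. Over all named genes tested, 16.5% were called and 9.29% were lower at that time. CCR2, CXCR2, CXCR4 and CX3CR1, the receptors of CCL2 and CCL7, of the neutrophil attractants, of CXCL12 and of CX3CL1, were dim on all 8 arrays. ACKR3, an atypical receptor that takes up CXCL12, read 7.85, 7.75 and 7.86 in siControl cells and 8.31, 8.38 and 8.23 in siRND3 cells at 24 h (log2 difference 0.49, SE 0.08, limma adjusted p 0.0119). It was thus higher in the cells in which the alpha probe of CXCL12 was lower. It did not pass without siControl replicate 2 (0.0516) or 3 (0.0501). CCR1 fell by 0.79 (SE 0.10, adjusted p 0.00526) and CCR10 was higher by 0.38 (adjusted p 0.0423), the latter not past the threshold in 8 of 16 alternatives. CCR6, the receptor of CCL20, and CXCR1, which binds CXCL8 and CXCL6, did not pass (log2 differences 0.27 and -0.63, adjusted p 0.127 and 0.275).

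Of 38 genes that induce or regulate chemokine transcription, 36 were tested, of which 10 fell and 2 rose at 24 h, against 9.29% of all named genes lower and 16.5% called. The median over the list was -0.15, against 0.04 over all named genes. The 5 with the largest differences all fell. They were IL1B (-1.59), IL1A (-1.22), TLR4 (-1.22), TAB2 (-0.86) and MYD88 (-0.81), with limma adjusted p from 0.000362 to 0.00215. IL1B and IL1A encode interleukin 1 beta and alpha, which induce chemokines, TLR4 is a receptor that signals through MYD88, and TAB2 links such receptors to NF-kB. IL1B read 11.01, 10.87 and 11.15 in siControl cells and 9.51, 9.39 and 9.38 in siRND3 cells at 24 h, and 12.29 and 8.05 at 48 h. Its groups did not overlap at 24 h. TRAF6, the adaptor between MYD88 and TAB2, and TLR3 were higher at 24 h (0.44 and 0.48, adjusted p 0.0246 and 0.0199) and at 48 h (0.81 and 0.63, adjusted p 0.0124 and 0.032). IRAK1, IKBKB and the NF-kB subunits RELA and NFKB1 did not pass at either time (log2 differences -0.35 to 0.14). The NF-kB subunit RELB was lower at 24 h (-0.65, limma adjusted p 0.00399), with a difference of -1.17 at 48 h. The subunit REL did not pass at 24 h (-0.72, limma adjusted p 0.053). The remaining genes of the list that fell at 24 h were TNF (-0.5), JUN (-0.47), NFKBIA (-0.32) and CEBPB (-0.28). At 48 h 15 genes of this list were lower and 3 higher, against 13.4% of all named genes lower and 27.8% called, with a median of -0.44 against 0.08 over all named genes.

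Genes of mRNA decay, shedding and proteolysis showed 3 lower and 1 higher of 16 tested at 24 h, against 9.29% lower and 16.5% called over all named genes. MAPKAPK2, a kinase that stabilises chemokine mRNAs (-0.74, limma adjusted p 0.0148), MMP2, a protease that cleaves CCL7 and CXCL12 (-0.72, adjusted p 0.00505), and CTSS (-0.46, adjusted p 0.0406) fell. ZFP36L1, which promotes decay of AU-rich mRNAs, was higher by 0.37 (adjusted p 0.0292). CTSS and ZFP36L1 missed the threshold in 9 and 7 of 16 alternatives. MAPKAPK2 missed it without siControl replicate 1 or 3 (0.0539 and 0.0615).

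Markers of other cells were read beside these results. At 24 h, 1 of 8 tested leukocyte markers and 1 of 6 tested endothelial and fibroblast markers were lower. Of 8 tested glioma and astroglial markers, 1 was higher and 2 were lower. Over all named genes tested, 16.5% were called and 9.29% were lower at 24 h, and 27.8% and 13.4% at 48 h. Of 9 leukocyte markers on the arrays, 8 were well above background on all 8 arrays and FCGR3A was dim on all, and CSF1R was the gene of this list that fell at 24 h (-0.35, limma adjusted p 0.0295). The log2 of the summed leukocyte marker signal ranged from 12.86 to 12.89 in siControl and from 12.86 to 13.04 in siRND3 cells at 24 h, and was 12.78 and 12.97 at 48 h. CD68 and CSF1R were the brightest of this list (11.98 to 12.74 and 9.59 to 11.3 over the 8 arrays), so the sum mostly follows CD68. Of 7 endothelial and fibroblast markers, PECAM1 fell (-0.99, adjusted p 0.0216) and CLDN5 was dim on all 8 arrays, with sums from 10.19 to 10.24 and from 9.94 to 10.23 at 24 h and of 10.53 and 10.72 at 48 h. Among glioma and astroglial markers, NES was higher (0.41) and CD44 and SLC1A3 were lower (-0.58 and -0.34). At 48 h CSF1R (-1.72), PECAM1 (-3.44), CD44 (-2.12), SLC1A3 (-0.88) and FN1 (-0.66) were lower, and NES (2.1) and the macrophage marker CD68 (0.76, adjusted p 0.0184) were higher. The labels name U87 cells only, so these marker signals are not read as amounts of other cell types. The part of these markers in the chemokine results was not tested. In bulk RNA, fewer cells in a given state and less RNA per cell cannot be told apart. At 24 h CSF1R, PECAM1, NES and SLC1A3 did not pass when any 1 of the siControl arrays was left out.

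**Figure D4:**
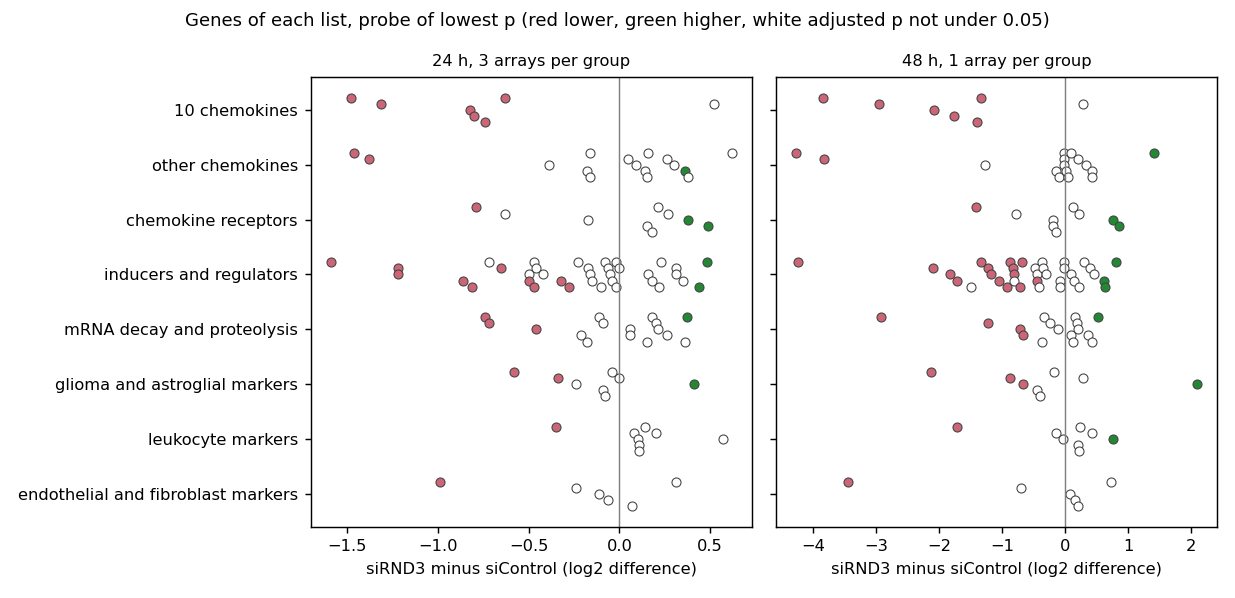
Difference of siRND3 from siControl (horizontal axes, log2) for each tested gene of the chemokine list and of 7 further lists (rows, points spread vertically only for legibility), at 24 h (left) and 48 h (right, a wider scale). Red points were lower and green points higher at an adjusted p of 0.05. Over all named genes tested, 9.29% were lower at 24 h and 13.4% at 48 h. CXCL12 is red by 1 of its 3 tested probes, and all lists were chosen with earlier results of these data known. Of the 7 tested chemokines in the top row, 6 are red at both times, against 2 of 16 in the row of other chemokines.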

How the data were processed

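RNA of 8 U87 samples was measured on 8 arrays with 1 colour, grouped by the treatment and time in the labels. The authors used a Cy3 low-input labelling kit and extracted spots with Agilent software (Feature Extraction 10.7.3.1). Per the file headers, the linear intensity of each spot had been corrected for background within its array, and the deposited files carry flags for outlier spots and for spots well above background. A second deposited table gives the authors' log2 values, stated to be quantile-normalised, whose rank order matched the spot median signal.

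Here processed intensities were put on the log2 scale and quantile-normalised across the 8 arrays. Then outlier spots (0.364% to 0.53% per array) were left out and spots of a probe were averaged. A probe was well above background where at least 50% of its spots were so marked. Probes so marked on all 3 arrays of a group at 24 h were tested (28759), and CCL7, CCL20, CXCL6 and 1 CXCL12 probe did not pass this filter. Gene names came from matching probe accessions to RefSeq (GRCh38.p14), which named 60% of probes. limma 3.58.1 in R 4.3.3 was run on the 6 arrays at 24 h, and on all 8 arrays with 4 groups for 48 h and time, with p-values adjusted by Benjamini-Hochberg across the tested probes. The fits were tested on simulated data. A gene was counted as lower where at least 1 probe passed and none passed as higher. Named in the text were all 10 genes, RND3, the receptors of the members, the 3 genes most like CCL2 and CXCL8, and at most 5 called genes of each other list with the largest differences. CXCL5, TRAF6, TLR3, IRAK1, IKBKB, RELA, NFKB1, RELB, REL, TNF, JUN, NFKBIA, CEBPB, VIM, CHI3L1, CD68, FN1 and the dim markers were named after their values were seen. The members and lists were chosen with earlier results of these data known. The number of arrays limits the precision.

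Alternatives were scaling to the 75th percentile, normexp correction (offset 50), the authors' values, no filter or a filter on all 6 arrays at 24 h, averaging the probes of each gene, leaving out each 24 h array, the replicate number as a block and array weights. At 24 h, normalisation over the 6 arrays, significance analysis of microarrays (SAM, the test the methods name) and a fit of the 8 arrays with terms for treatment and time were also run.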

Additional observations from a re-analysis of the deposited data

Results flagged for a closer look

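The difference between siRND3 and siControl cells was not the same at 48 h as at 24 h for 3 chemokine probes, by the interaction term of the limma model. It changed by -1.46 for CCL2 (A_23_P89431, adjusted p 0.0245), by -2.17 for CXCL1 (A_23_P7144, adjusted p 0.0203) and by -2.53 for CXCL8 (A_32_P87013, adjusted p 0.0499) on the log2 scale. Each rests on 1 array per group at 48 h, and each call was lost without any 1 of the siControl arrays at 24 h. Among the other named genes, the same term was -2.81 for CCL3 (adjusted p 0.00887), -2.44 for CCL3L3 (0.0123), -2.66 for IL1B (0.00978) and -2.20 for MMP2 (0.0123), each of which missed the threshold in 2 of 13 alternatives. It was -1.54 for CD44 (0.0181), 1.69 for NES (0.0233) and -1.37 for CSF1R (0.019), each lost in 4 of 13. It was 1.05 for CXCL14 (0.037), -0.88 for TLR4 (0.0375) and -2.45 for PECAM1 (0.0341), each lost in 7 of 13, and -0.85 for TAB2 (0.0491), lost in 9 of 13. All of these calls were lost with the replicate number as a block. Groups of 3 arrays or of 1 were not examined for outlying arrays.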

How the results depend on the processing

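At 48 h the 8 chemokine probes called remained past the threshold in every alternative, with 8 called throughout and the same direction in each. At 24 h the count of 8 fell to 5 without siControl replicate 1, 2 or 3, with a range of 5 to 8 over the arrays left out, and lay between 6 and 8 in the other alternatives. The 3 interaction calls became 0 with the replicate number as a block and ranged from 0 to 3 without 1 array. The 2 calls for time in siControl cells became 0 with the block and ranged from 1 to 2 without 1 array. The 2 calls for time in siRND3 cells became 1 under 75th percentile scaling, normexp correction, the authors' values, no filter and array weights, 0 with the block, and 1 without any 1 array. For all of these losses the cause was not tested, beyond the fewer arrays and residual degrees of freedom of the block and of the arrays left out.

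The labels do not say whether the replicate numbers pair the arrays, but at 24 h they match the slide column in both rows. Deviations of same-numbered siControl and siRND3 arrays from their group means correlated at 0, -0.01 and 0.13. Those of differently numbered arrays correlated at -0.13 to 0.11. With 3 arrays per group these values cannot settle whether the arrays are paired. With the replicate block at 24 h the count over all probes went from 3350 to 1651, and over the members to 6, with CXCL3 (adjusted p 0.0548) and CXCL1 by A_33_P3330264 (0.0605) not past the threshold. Of the other named genes, ACKR3 (0.0571), MAPKAPK2 (0.0502), CCR10, CXCL14, NES, SLC1A3, CSF1R, CTSS and ZFP36L1 (0.0779 to 0.111) did not pass at 24 h with the block. Over all probes the 24 h count was 2399 without the filter, 1379 to 2574 without 1 array and up to 4672 with all 8 arrays; at 48 h it was 3505 with the block against 5452, and the interaction count of 785 became 7, 28 and 23 without siControl replicates 1, 2 and 3, 189 to 273 without 1 siRND3 array, 0 with the block and 1300 under normexp. Counts for time in siControl cells (1023) ranged from 73 to 905 without 1 array, and were 1565 under normexp and 0 with the block. Those for time in siRND3 cells (2598) ranged from 1446 to 2394 and were 1 with the block.

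Directions turned only for values that were not called. The CXCL12 probe A_33_P3712341 went from 0.08 to -0.57 at 24 h and from 0.07 to -0.64 at 48 h when all CXCL12 probes were averaged, which includes the lowered alpha probe. A_33_P3372840 became 0.03 under normexp and 0.04 with the authors' values at 48 h, and its change between times became -0.03 under 75th percentile scaling, -0.06 without siControl replicate 3, -0.11 without siRND3 replicate 3 (range without 1 array -0.11 to 0.28) and -0.07 for the mean of the CXCL12 probes. The change of A_33_P3712341 became 0.01 without siControl replicate 1 and 0.02 without siRND3 replicate 1 (range -0.05 to 0.02). CX3CL1 became 0.01 in its change between times without siControl replicate 1 (range -0.47 to 0.01), and -0.01 with the authors' values and -0.03 without siRND3 replicate 3 (range -0.03 to 0.42) for time in siRND3 cells, where CXCL1 by A_33_P3330264 became 0.02 under 75th percentile scaling and without siRND3 replicate 3 (range -0.08 to 0.02).

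Normexp correction brought the differences of dim probes towards 0, by more than for bright ones such as CCL2 and CXCL2. The sizes given for CXCL8, CXCL1, CXCL3 and the alpha probe of CXCL12 depend on the background correction, while their directions at 24 h and 48 h did not.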
